A study of Homo sapiens with 6 samples.

Results

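The BCL2 family survival and death genes decide at the outer mitochondrial membrane whether a stressed cell lives or dies. The 10 genes described here were chosen by name: the survival genes BCL2, BCL2L1 and MCL1, the effectors BAX and BAK1, and the BH3-only genes BCL2L11, BBC3, PMAIP1, BID and BIK. They are 10 of the 58302 genes in the expression table, and all 10 had enough reads to be tested.

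MDA-MB-231-DR is a drug-resistant derivative of MDA-MB-231, an established line of triple-negative breast cancer, and according to the methods it is kept in medium with a low level of doxorubicin. Bulk RNA sequencing covered 3 libraries of control cells and 3 libraries of cells treated with cyperotundone (CYT), a compound from the sedge Cyperus rotundus. The sources used here give no CYT dose, no duration and no vehicle for these libraries, and do not say whether doxorubicin was present at harvest. The control libraries 1 to 3 held 17357053, 17770102 and 14050849 counts, and the CYT libraries 1 to 3 held 14106017, 13056270 and 13423683. The markers listed for MDA-MB-231 were present, with vimentin (VIM) at 2459 ± 252.6 CPM (SD, n = 3) in control cells. CD44, AXL, CAV1 and EGFR were also detected. The estrogen receptor gene ESR1 was near 0, at 0.0917 ± 0.110 CPM. Of 10 luminal markers that include ESR1, the keratin genes KRT8, KRT19 and KRT18 had control means of 322.5, 287.1 and 279.3 CPM. None of the others exceeded a control mean of 5.03 CPM. CPM are counts scaled by TMM, edgeR's normalization, to libraries of equal size. Summed over the 5 MDA-MB-231 markers, CPM was 3646, 3798 and 4040 in control and 1656, 1804 and 1734 in CYT libraries. Of these markers, VIM, AXL and EGFR were called lower after CYT, although AXL was called in only 6 of 16 alternatives. No fit that left out a library called AXL. The part of this lower marker level in the results below was not tested. The labels do not say that the 3 libraries of a group came from separate cultures, so p-values measure only the spread between these libraries. In bulk RNA, a change in how many cells express a gene and a change in RNA per cell cannot be told apart.

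Survival proteins of this family bind and restrain the pore-forming effectors BAX and BAK. BH3-only proteins are the sensors: they occupy the groove of the survival proteins, and some of them also activate the effectors, after which cytochrome c leaves the mitochondria and caspases are switched on. BCL2L1 is spliced into a long survival isoform and a short death-promoting isoform, and counts summed over a gene do not separate them.

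CYT replicate 2 stood apart from the other libraries. It correlated with CYT replicates 1 and 3 at r = 0.905 and 0.9045 across genes on the log2 scale, whereas replicates 1 and 3 correlated at 0.970 and control pairs at 0.953 to 0.971. Its deviation followed base composition: across 15542 tested genes, the difference between CYT replicate 2 and the mean of the other CYT libraries had a rank correlation of -0.749 with the GC content of the longest annotated transcript. Control replicate 2 deviated in the same sense, with a rank correlation of -0.571. Among the 10 family genes, PMAIP1 (37.2% GC) was 1.63 log2 units higher in CYT replicate 2 than in the other CYT libraries, and BBC3 (69.7% GC) was 2.87 log2 units below them, a difference of -2.87. Over the 10 genes the rank correlation was -0.939. The fold change of each of the 10 genes is therefore given with and without this library below, and a correction for GC content and length, chosen after the data were seen, left BCL2L1 at -2.59, BAK1 at -2.33 and BIK at 1.83 and turned PMAIP1 from 0.29 to -0.35 on the log2 scale.

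**Figure D1:**
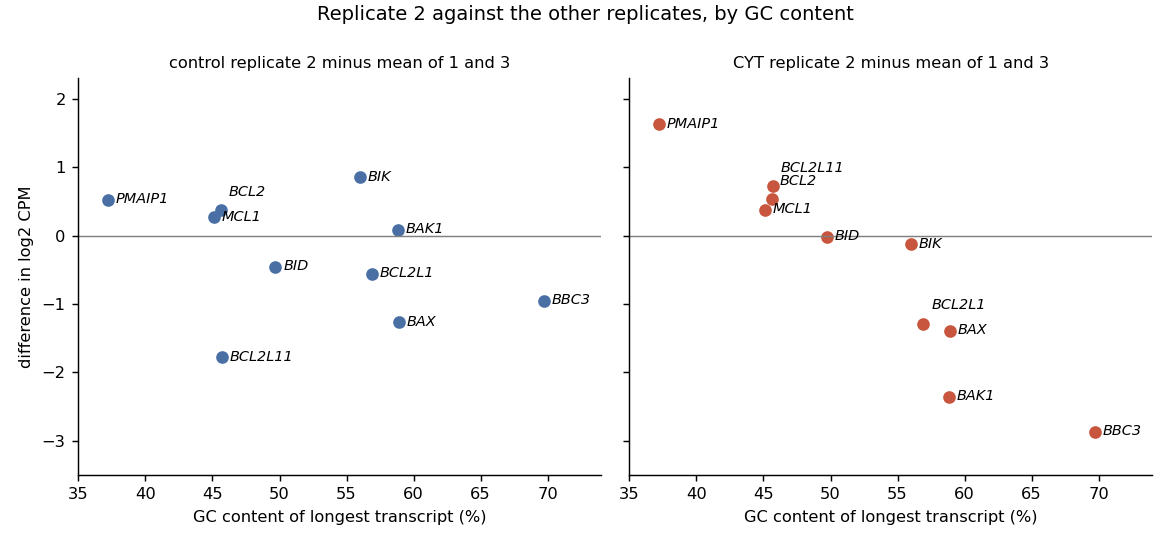
The difference in log2 CPM between replicate 2 and the mean of replicates 1 and 3 is plotted against the GC content of the longest transcript for each of the 10 genes, for control libraries on the left and CYT libraries on the right. In CYT libraries the points run from PMAIP1 at 1.63 down to BBC3 at -2.87, while control libraries show more scatter, with BCL2L11 at -1.78.

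After CYT treatment the survival gene BCL2L1 and the effector gene BAK1 fell, and the BH3-only gene BIK rose. These 3 of 10 genes, or 30%, had an adjusted p under 0.05 in edgeR's quasi-likelihood test, beside 28.6% of all 15572 genes tested (4451 genes), so the share called in the family was near that of genes in general. By direction, 1 of 10 was called higher (10%, beside 15.7% of all genes) and 2 of 10 lower (20%, beside 12.9% of all genes). All 3 were also called with an absolute log2 fold change over 1, as were 27.4% of all genes. The median log2 fold change of the 10 genes was -0.17, beside 0.0064 over all tested genes, and it was -0.41 beside -0.036 without CYT replicate 2. In 5 of 10 genes (50%) the CYT and control libraries did not overlap, beside 46.1% of all genes. Adding the replicate number as a block raised the number of all genes called lower from 2002 to 3089, and added BAX to the family genes called.

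**Figure D2:**
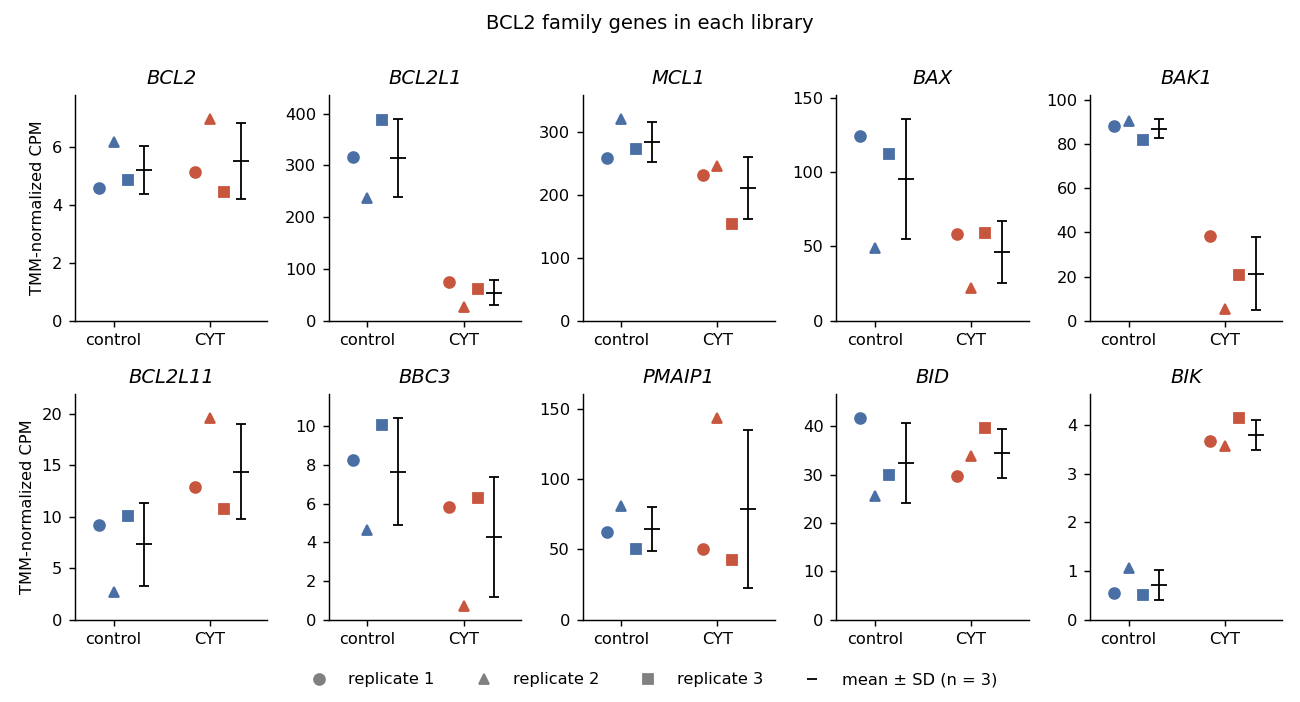
Each panel shows TMM-normalized CPM of a gene in the 3 control and 3 CYT libraries, with a marker shape per replicate number and the mean ± SD beside the points. BCL2L1, BAK1 and BIK show the widest separation between the groups. CYT replicate 2 is the lowest or highest library of its group for every gene except BID. On the log2 scale it stands furthest from the other CYT libraries for PMAIP1, BBC3 and BAK1.

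Among the survival genes, BCL2L1, which encodes BCL-xL, had the largest fall in the family. It lies on chromosome 20 of hg38 from 31664452 to 31723989 on the minus strand. The raw counts of BCL2L1 were 5104, 4451 and 5392 in the control libraries and 1062, 384 and 758 in the CYT libraries, in the order of replicates 1 to 3 that is kept below. Every CYT library was far below every control library, and CYT replicate 2 was the lowest. In CPM, BCL2L1 went from 313.7 ± 75.4 (SD, n = 3) in control cells to 54.2 ± 24.4 (SD, n = 3) after CYT, which is 17.3% of the control mean. This is a log2 fold change of -2.53 with a standard error (SE) of 0.41 (adjusted p = 0.00245, edgeR's quasi-likelihood test). Without CYT replicate 2 it was -2.22 (SE 0.30, adjusted p = 0.00113, edgeR), and the CYT mean was then 21.5% of control. BCL2L1 was called lower in each of 16 alternative fits, with log2 fold changes from -2.85 to -2.22 and adjusted p from 9.36e-08 to 0.0132.

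ABALON, an annotated antisense RNA, shares 1424 exonic bases with BCL2L1. Its counts were 704, 629 and 312 in control and 172, 51 and 151 in CYT libraries, a log2 fold change of -1.84 (adjusted p = 0.0190, edgeR), or -1.46 without CYT replicate 2, and it was not called without control replicate 1 (-1.62, adjusted p = 0.0676, edgeR). The use of strand in counting is not given in the sources used here, so reads of the shared stretch cannot be assigned to either gene. The 9 annotated transcripts of BCL2L1 in GENCODE 29 were not separated, and the balance of its isoforms was not analysed here.

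The promoters of the genes called lower are shown because BCL2L1 and BAK1 fell together. They are RefSeq windows of build GRCh38.p14, from 250 bases before to 50 bases after the annotated start, written 5′ to 3′ on the gene's strand. Of the 10 genes, 8 matched the promoter table, with 13 entries among 35116, while MCL1 and BIK are named only. Capitals mark every match, on either strand, to any of 7 motifs: GGGCGG (GC box), the CCAAT box by these 5 letters, CCGGAAG (ETS core), CACGTG (E box), TTCNNNGAA (STAT motif), GGNNTTTCC (NF-kB motif) and TGACGTCA (CRE). Of all promoters, 45.0% hold the GC box, 34.6% the CCAAT box, 10.3% the ETS core, 7.26% the E box, 7.66% the STAT motif, 6.26% the NF-kB motif and 1.85% the CRE. The upstream BCL2L1 window at chr20:31723914-31724213 holds 1 ETS core and no other of these motifs, and the second window at chr20:31722819-31723118 holds 1 GC box.
BCL2L1 chr20:31723914-31724213: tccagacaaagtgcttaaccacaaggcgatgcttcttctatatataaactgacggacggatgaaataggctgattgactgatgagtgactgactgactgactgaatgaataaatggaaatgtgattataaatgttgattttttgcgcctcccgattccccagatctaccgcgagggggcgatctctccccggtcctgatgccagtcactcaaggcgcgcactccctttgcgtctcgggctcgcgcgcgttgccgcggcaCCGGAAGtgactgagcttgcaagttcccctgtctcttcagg
BCL2L1 chr20:31722819-31723118: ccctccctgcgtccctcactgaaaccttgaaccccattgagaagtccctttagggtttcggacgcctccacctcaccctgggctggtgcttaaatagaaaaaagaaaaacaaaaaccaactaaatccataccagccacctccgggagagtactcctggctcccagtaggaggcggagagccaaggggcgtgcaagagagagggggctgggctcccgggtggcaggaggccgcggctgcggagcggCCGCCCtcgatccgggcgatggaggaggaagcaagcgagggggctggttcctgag

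MCL1, a short-lived survival protein, had raw counts of 4174, 6007 and 3790 in control and 3282, 3452 and 1936 in CYT libraries. Scaled to CPM, the CYT libraries (231.5, 245.7 and 153.8) were all below the control libraries (258.8, 319.8 and 272.5), but the gap between the nearest libraries was small. MCL1 had a log2 fold change of -0.43 (SE 0.29) and was not called (adjusted p = 0.294, edgeR). Without CYT replicate 2 it was -0.56 (adjusted p = 0.143, edgeR). The correction for GC content and length gave -0.59 and called MCL1 lower (adjusted p = 0.0305, edgeR), within a range of 0.0305 to 0.646 over 16 alternatives.

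BCL2 itself, the founding member of the family, was scarcely expressed. Its counts were 74, 116 and 68 in control and 73, 98 and 56 in CYT libraries, and the groups overlapped. BCL2 had a log2 fold change of 0.082 (SE 0.36, adjusted p = 0.887, edgeR) that turned to -0.13 without CYT replicate 2 (adjusted p = 0.801, edgeR), with adjusted p from 0.672 to 0.998 over the alternatives.

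Of the effectors, BAK1 fell and BAX was not called. BAK1, whose protein sits in the outer mitochondrial membrane, lies on chromosome 6 of hg38 from 33572547 to 33580293 on the minus strand. BAK1 counts were 1422, 1698 and 1141 in control and 542, 75 and 258 in CYT libraries. The control libraries were close together, the CYT libraries were all lower, and CYT replicate 2 was far below its group. BAK1 was at 86.9 ± 4.34 CPM (SD, n = 3) in control cells and 21.4 ± 16.5 CPM (SD, n = 3) after CYT. On the log2 scale the difference was -2.02 (SE 0.57, adjusted p = 0.0264, edgeR), and it was -1.57 without CYT replicate 2 (SE 0.32, adjusted p = 0.00555, edgeR). BAK1 was not called without CYT replicate 3 (adjusted p = 0.0865) or without control replicate 1 (0.0632), 2 (0.0554) or 3 (0.0615) in edgeR, while the log2 fold changes in these 4 fits lay between -2.09 and -1.96. Without CYT replicate 1 it was -2.75. It was called in the other 12 of 16 alternatives, the lowest adjusted p being 0.00182. Reads could also be shared with the processed pseudogene BAK1P1, which had 49, 52 and 34 counts in control and 20, 1 and 9 in CYT libraries.

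BAX, the effector that moves from the cytosol to mitochondria, had counts of 2000, 920 and 1563 in control and 828, 313 and 738 in CYT libraries. On the CPM scale control replicate 2, at 48.98, lay below CYT replicates 1 and 3, at 58.4 and 58.6, so the groups overlapped. In each group replicate 2 was the lowest library. BAX had a log2 fold change of -1.03 (SE 0.47) and was not called (adjusted p = 0.125, edgeR), and without CYT replicate 2 it was -0.70 (adjusted p = 0.173, edgeR). With the replicate number as a block BAX was called lower, at -1.05 (adjusted p = 0.00773, edgeR), in a range of 0.00364 to 0.309 over 16 alternatives, of which 3 called it.

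The BAK1 window at chr6:33580227-33580526 holds 2 GC boxes and 2 CCAAT boxes, and the BAX window at chr19:48954625-48954924 holds 4 E boxes, 2 GC boxes and 2 CCAAT boxes, with capitals as for BCL2L1. BAX is shown for comparison as the effector that was not called. The CCAAT box is thus in both effector windows and in neither BCL2L1 window, and it was also found in the windows of BBC3 and BCL2L11. Matches describe letters only and say nothing on binding.
BAK1 chr6:33580227-33580526: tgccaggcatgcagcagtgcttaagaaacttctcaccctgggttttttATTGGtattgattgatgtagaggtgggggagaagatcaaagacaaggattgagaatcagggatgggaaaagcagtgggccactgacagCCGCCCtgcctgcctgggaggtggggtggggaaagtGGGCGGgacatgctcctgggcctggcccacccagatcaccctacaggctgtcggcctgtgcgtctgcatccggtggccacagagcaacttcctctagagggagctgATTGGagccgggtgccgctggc
BAX chr19:48954625-48954924: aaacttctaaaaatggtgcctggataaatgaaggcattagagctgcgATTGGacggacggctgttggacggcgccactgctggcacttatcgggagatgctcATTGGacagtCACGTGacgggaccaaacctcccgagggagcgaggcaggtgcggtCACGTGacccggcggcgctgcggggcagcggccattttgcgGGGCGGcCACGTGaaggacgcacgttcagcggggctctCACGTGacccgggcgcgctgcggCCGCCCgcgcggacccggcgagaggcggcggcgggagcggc

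The BH3-only genes did not move as a group: BIK rose, and BCL2L11, BBC3, PMAIP1 and BID were not called. BIK encodes a BH3-only protein anchored mainly in the endoplasmic reticulum, and lies on chromosome 22 of hg38 from 43110748 to 43129712 on the plus strand. BIK counts were 9, 20 and 7 in control and 52, 50 and 52 in CYT libraries. All 3 CYT libraries were high and nearly equal, including CYT replicate 2, and no control library came near them. BIK was at 0.709 ± 0.310 CPM (SD, n = 3) in control cells and 3.79 ± 0.304 CPM (SD, n = 3) after CYT. This rise was 2.39 on the log2 scale (SE 0.47, adjusted p = 0.00540, edgeR), and 2.42 without CYT replicate 2 (adjusted p = 0.00571, edgeR). BIK was called in each of the 15 alternatives that tested it, with log2 fold changes from 1.53 to 2.80 and adjusted p from 0.000126 to 0.0319. The lowest value came from limma on log2(FPKM + 1). A filter at a mean of 5 CPM removed BIK because of its low level.

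BCL2L11 encodes BIM, which binds every survival protein of the family. Its counts were 149, 51 and 140 in control and 183, 275 and 135 in CYT libraries. In CPM the CYT libraries (12.9, 19.6 and 10.7) all exceeded the control libraries (9.24, 2.71 and 10.1), with CYT replicate 3 just above control replicate 3. The log2 fold change was 0.98 (SE 0.49) and was not called (adjusted p = 0.167, edgeR). It was 0.70 without CYT replicate 2 (adjusted p = 0.298, edgeR), and none of 16 alternatives called it, the lowest adjusted p being 0.113. The lincRNA gene MIR4435-2HG, on the opposite strand, shares 727 exonic bases with BCL2L11 and had 1347, 676 and 730 counts in control and 796, 171 and 774 in CYT libraries.

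BBC3 encodes PUMA, a p53 target. BBC3 had 133, 87 and 140 counts in control and 83, 10 and 79 in CYT libraries, so that CYT replicate 2 alone was far down and the other CYT libraries lay within the control range in CPM. The log2 fold change was -0.84 (SE 0.66, adjusted p = 0.372, edgeR), and it shrank to -0.33 without CYT replicate 2 (adjusted p = 0.537, edgeR), over a range of 0.0698 to 0.619 in the alternatives. BBC3 was lower after CYT in each of the 3 same-numbered pairs, from 8.25 to 5.85, 4.63 to 0.712 and 10.07 to 6.28 CPM, and with the replicate block the log2 fold change was -1.16 and was not called (adjusted p = 0.0705, edgeR).

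PMAIP1 encodes NOXA, which binds MCL1. PMAIP1 counts were 1008, 1514 and 697 in control and 714, 2009 and 535 in CYT libraries. Replicate 2 was the highest library of each group, and CYT replicates 1 and 3 lay at or below the low end of the control libraries. The log2 fold change of 0.29 (SE 0.47, adjusted p = 0.678, edgeR) rested on CYT replicate 2, since it was -0.48 without that library (adjusted p = 0.216, edgeR). It was also negative, at -0.35, with the GC content and length correction (adjusted p = 0.309, edgeR), and adjusted p ran from 0.199 to 0.912 over the alternatives.

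BID, which links death receptors to mitochondria after cleavage by caspase 8, had 671, 482 and 415 counts in control and 421, 475 and 499 in CYT libraries. The groups overlapped fully, and the log2 fold change was 0.087 (SE 0.31, adjusted p = 0.858, edgeR), or 0.099 without CYT replicate 2 (adjusted p = 0.812, edgeR). For BCL2L1, MCL1, BAK1, BCL2L11 and BIK, the 5 genes whose groups did not overlap, the exact permutation test gave a two-sided p of 0.1, the smallest that 3 against 3 libraries allow.

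**Figure D3:**
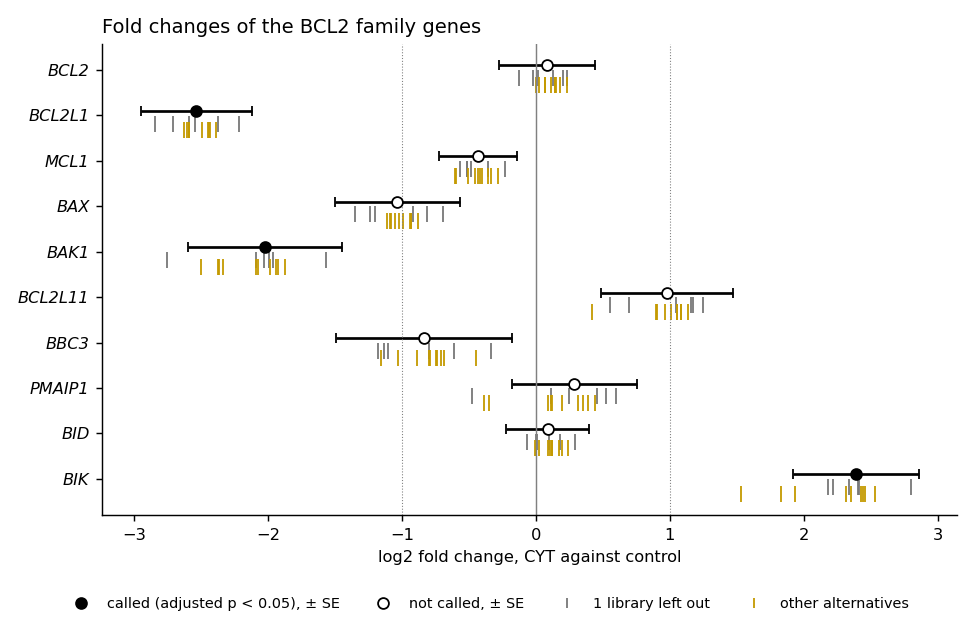
Points give the log2 fold change of CYT against control with its standard error for each of the 10 genes, filled where the adjusted p was under 0.05. Ticks below them give the value in the 6 fits that left out a library (grey) and in the other alternatives (yellow). BCL2L1, BAK1 and BIK kept their side of 0 in all fits, as did the unfilled MCL1, BAX, BCL2L11 and BBC3. Ticks of BCL2, PMAIP1 and BID crossed 0.

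Among the 10 genes, BCL2L1 had the highest mean level in control cells and MCL1 after CYT. Levels of different genes are compared here in FPKM, fragments per kilobase of gene length scaled to the library. In control cells the order of mean FPKM was BCL2L1 (43.8 ± 9.63), MCL1 (29.7 ± 5.26), BAK1 (22.3 ± 2.09), PMAIP1 (16.0 ± 4.63), BAX (15.8 ± 6.06), BID (2.81 ± 0.538), BBC3 (1.29 ± 0.435), BIK (0.749 ± 0.374), BCL2L11 (0.468 ± 0.246) and BCL2 (0.321 ± 0.0724). The library ranges of neighbours in this order overlapped except between MCL1 and BAK1, between BAX and BID, and between BID and BBC3. After CYT the order was MCL1 (22.5 ± 6.54), PMAIP1 (20.3 ± 15.7), BAX (7.82 ± 3.25), BCL2L1 (7.61 ± 3.27), BAK1 (5.47 ± 4.25), BIK (3.98 ± 0.103), BID (3.05 ± 0.355), BCL2L11 (0.962 ± 0.373), BBC3 (0.717 ± 0.507) and BCL2 (0.346 ± 0.105), all SD with n = 3. In CYT replicate 2 PMAIP1 (38.3 FPKM) and not MCL1 (27.8 FPKM) was highest, and without this library the mean of PMAIP1 was 11.3 FPKM. Without CYT replicate 1 the mean of BAK1 was 3.23 FPKM. Here only BIK and BID, and BID and BCL2L11, were neighbours without overlap. By mean, BCL2L1 moved from place 1 to place 4. Its place behind BAX rested on CYT replicate 3 (8.0 against 9.37 FPKM). In CYT replicates 1 and 2, BCL2L1 (10.67 and 4.17 FPKM) was slightly above BAX (10.01 and 4.09 FPKM). BIK moved from below BBC3 to above BID in FPKM, but with GENCODE 29 exonic lengths, chosen after the data were seen, BIK stayed below BID after CYT, and BIK and BCL2L11 changed places in control cells. BAX and PMAIP1 in control cells changed places with these lengths and also with TMM scaling.

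Summed over the 10 genes, FPKM was 133.3 ± 6.62 in control and 72.7 ± 14.5 in CYT libraries (SD, n = 3). BCL2L1 made up 32.5%, 27.1% and 38.6% of this sum in the control libraries and 14.0%, 4.90% and 14.1% in the CYT libraries. No CYT library reached the lowest control share, and replicate 2 was lowest in both groups. MCL1 held 22.3 ± 4.19% in control and 30.5 ± 3.26% after CYT, with overlapping libraries, BAK1 16.8 ± 2.01% and 7.85 ± 5.70%, and BIK 0.566 ± 0.293% and 5.65 ± 1.32% (SD, n = 3). With GENCODE 29 exonic lengths the share of BIK was 0.277% in control and 2.83% after CYT. PMAIP1 held 45.1% in CYT replicate 2 but 16.5% and 17.5% in CYT replicates 1 and 3, beside 16.2% in the highest control library.

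The ratio of BCL2L1 to MCL1 in FPKM was 1.65, 0.999 and 1.92 in the control libraries and 0.436, 0.150 and 0.528 in the CYT libraries. BCL2L1 was thus level with or above MCL1 in control cells and below it in every CYT library. The ratio of BAK1 to BAX was 1.08, 2.80 and 1.11 in control and 0.994, 0.364 and 0.531 in CYT libraries, so that BAX was at least level with BAK1 after CYT. With the exonic lengths the ratio of BAK1 to BAX was 0.832, 2.16 and 0.854 in control and 0.766, 0.280 and 0.409 in CYT libraries, which puts BAX above BAK1 in 2 of 3 control libraries as well. The lengths behind the deposited FPKM differ from the exonic lengths, for example 7058 against 3314 bases for BCL2L1, and are equal at 953 bases for BIK.

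**Figure D4:**
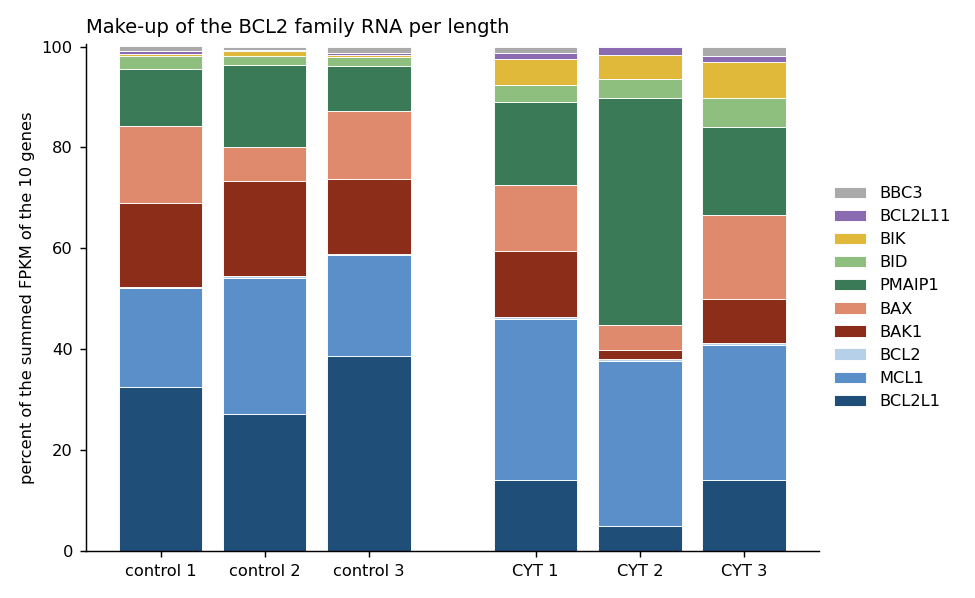
Stacked bars give the percent of the summed FPKM of the 10 genes that each gene held in each library, with survival genes in blue at the bottom, effectors in red above them and BH3-only genes on top. The dark blue BCL2L1 block shrinks from 32.5%, 27.1% and 38.6% in control to 14.0%, 4.90% and 14.1% in CYT libraries, and PMAIP1 reaches 45.1% in CYT replicate 2.

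The genes with the profiles most like BCL2L1 and BIK were sought among the other 12754 tested protein-coding genes, by Euclidean distance over the 6 libraries in log2 CPM centred on the control mean. Nearest to BCL2L1 were BTBD2 (distance 0.271, log2 fold change -2.48), ZDHHC18 (0.354, -2.61) and BCAT2 (0.388, -2.43). Nearest to BIK were QRICH2 (distance 0.462, log2 fold change 2.08), ZNF843 (0.478, 2.53) and INAFM2 (0.483, 2.38).

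Of 13 further BCL2 family genes, 9 were tested, and 1 was called higher and 4 lower, beside 15.7% and 12.9% of all genes, with a median log2 fold change of -0.75 beside 0.0064 for all genes. Without CYT replicate 2, 2 were called higher and 5 lower, beside 18.6% and 17.0% of all genes in that fit, and the median was -0.94. BMF, a BH3-only gene, rose from 6.001 ± 1.118 to 23.3 ± 7.03 CPM (log2 fold change 1.95, adjusted p = 0.00369, edgeR). BCL2L2, which encodes the survival protein BCL-w, fell from 24.9 ± 3.47 to 10.4 ± 1.32 CPM (log2 fold change -1.26, adjusted p = 0.0133, edgeR). BNIP3, the BH3-only gene BAD and the effector-like BOK fell with log2 fold changes of -0.98, -1.49 and -1.67 (adjusted p = 0.0406, 0.0477 and 0.0481, edgeR), and each of these calls was lost in 7 or more of 16 alternatives. BAD was at -2.18 without CYT replicate 3, and BCL2L2 was not called without CYT replicate 3 (adjusted p = 0.0588, edgeR) or control replicate 3 (adjusted p = 0.0591, edgeR).

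Genes that act on family members were also counted. Of 16 splicing factors reported to act on BCL2L1, 0 were called higher and 5 lower, beside 15.7% and 12.9% of all genes, with a median log2 fold change of -0.67 beside 0.0064. Without CYT replicate 2, 7 were called lower and 0 higher, beside 17.0% and 18.6% of all genes. SRSF1, the factor on which the study centres, fell from 134.0 ± 5.66 to 21.8 ± 4.19 CPM (SD, n = 3; log2 fold change -2.62, adjusted p = 0.000662, edgeR). PTBP1, TRA2B, SRSF9 and KHDRBS1 were the other 4 that fell, with log2 values of -1.92, -1.46, -1.18 and -1.01, and KHDRBS1 was called in 7 of 16 alternatives. Of 9 genes listed for the turnover of MCL1 or NOXA protein, 1 was called lower and 0 higher, with and without CYT replicate 2: USP13, a protease that stabilizes MCL1, with a log2 fold change of -1.27 (adjusted p = 0.0129, edgeR) that was not called without CYT replicate 3 (-1.17, adjusted p = 0.0565, edgeR). The median of the list was 0.045. MARCH5, written as a date in the table and matched by its identifier, was not called, with a log2 fold change of 0.35 (adjusted p = 0.432, edgeR).

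**Figure D5:**
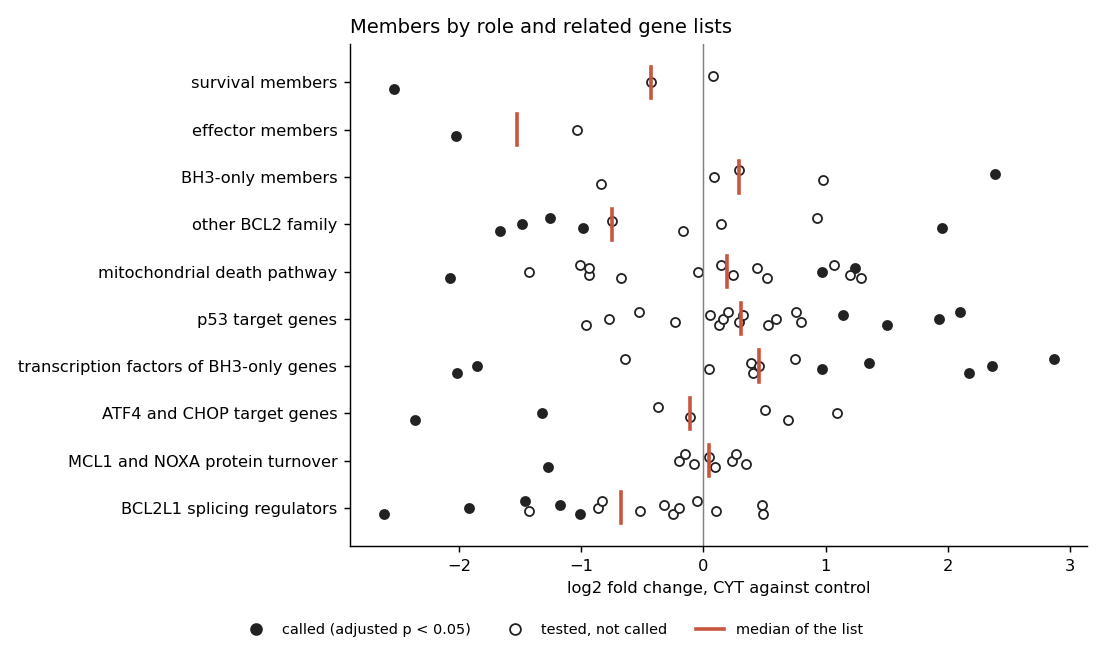
Each point is the log2 fold change of a tested gene, filled where the adjusted p was under 0.05, with the list median as a red bar. The 3 roles of the BCL2 family are at the top, and among the related lists below them the filled points of the splicing factors are all below 0.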

How the data were processed

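Per the submitters' processing notes and the methods, reads were checked with FastQC 0.12.1, cleaned, and aligned to hg38 with Hisat2. The authors deposited raw counts per gene; the counting program, its use of strand and its annotation are not given in the sources used here. The authors also deposited FPKM, made with Stringtie; in the 10160 genes whose counts reached 50 in each of the 6 libraries, count and FPKM implied a fixed gene length within 0.00209%. Members and gene lists were chosen with earlier results of these data known. Counts were tested with edgeR 4.0.16 in R 4.3.3 (TMM, filterByExpr with a minimum count of 10, glmQLFit and glmQLFTest, CYT against control) over 15572 genes with Benjamini-Hochberg adjustment, and called at an adjusted p under 0.05. The SE is the absolute log2 fold change over the root of F, and exact permutation tests from SciPy. Tests were tried on simulated counts first. Total counts were 13056270 to 17770102 per library, the biological coefficient of variation was 37.5%, and replicates differed by more than sampling noise (chi-square per gene of 22.1 or more). Named genes are all 10 members, SRSF1, genes overlapping a member, from each other list the 4 with the smallest adjusted p, the 2 with the highest mean CPM and any whose call changed in an alternative, and the 3 protein-coding genes nearest to BCL2L1 and BIK. The pseudogene BAK1P1 was chosen after its values were seen. Same-numbered libraries deviated together (correlations across genes of 0.188, 0.458 and 0.125 for replicates 1 to 3), which was taken as pairing; it comes from the label numbers and this check alone, and control 1 with CYT 3 (0.303) and control 3 with CYT 1 (0.201) correlated more than same-numbered pairs 1 and 3. The alternatives were DESeq2 1.42.0, no filter, upper-quartile normalization, a filter at 5 CPM on average, limma 3.58.1 on log2(FPKM + 1) and log2(FPKM + 0.1), the replicate block, protein-coding genes only and each library left out; a GC content and length correction, with and without the block, and GENCODE 29 exonic lengths were added after the data were seen. Some genes of the lists are counted with their list but are not reported here by name.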

Additional observations from a re-analysis of the deposited data

How the results depend on the processing

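BCL2L1 kept its call in all 16 alternative fits and BIK in all 15 that tested it, while BAK1 lay between -2.75 and -1.57 when 1 library was omitted and lost its call in 4 of those 6 fits. With the replicate block BAX was called lower at -1.05 (adjusted p = 0.00773) and 3089 genes instead of 2002 were lower; the replicate block changed no other member's call. A correction for GC content and length was chosen after the data were seen: with it 4 members were called lower, adding MCL1 at -0.59 and BAX at -1.11, PMAIP1 reversed to -0.35 and BID to -0.0065, and 3991 genes were lower. With that correction and the replicate block, 4 members were lower (MCL1 -0.61, BAX -1.09), PMAIP1 was -0.38 and 3882 genes were lower. A mean of at least 5 CPM left 1464 genes higher in place of 2449 and 0 members higher (1 in the other fits), since fewer genes, and not BIK, were tested. Leaving out a library gave 1208 to 2750 genes lower, 1 to 2 members lower, BCL2 from -0.13 to 0.23, PMAIP1 from -0.48 to 0.60 and BID from -0.067 to 0.29. With GENCODE 29 exonic lengths BAK1 held 14.3% of the family's control level in place of 16.8%. Upper-quartile normalization moved the median of all genes from 0.0064 to 0.16 and the members' median from -0.17 to -0.026; with no filter, over 32060 genes, these were 0.41 and -0.25. Other causes were not tested. Of 38 other named genes that were called, 21 kept the call in every fit that tested them and 0 reversed. Depth limits BIK, with 7 to 20 counts in control, and BBC3, with 10 in CYT replicate 2.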

Other observations

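Of all tested genes, 15.7% were called higher and 12.9% lower (18.6% and 17.0% without CYT replicate 2). The 16 genes listed for the mitochondrial death pathway include inhibitors of apoptosis as well as death-promoting genes. Of these 16 genes, 2 were called higher and 1 lower (2 and 3 without CYT replicate 2). Their median log2 fold change was 0.19 (-0.073 without CYT replicate 2) beside 0.0064 for all tested genes. With the GC content and length correction, 4 of them were called higher and 5 lower, beside 21.2% and 25.7% of all genes in that fit. CYCS, which encodes cytochrome c, rose from 249.1 ± 87.6 to 586.9 ± 224.0 CPM (SD, n = 3; log2 fold change 1.24, adjusted p = 0.0340, edgeR), although it was not called without CYT replicate 2 (0.88, adjusted p = 0.0646, edgeR), CYT replicate 3 (1.31, 0.0656), control replicate 1 (1.02, 0.120) or control replicate 3 (1.14, 0.121). AIFM1, a mitochondrial flavoprotein, fell from 42.1 ± 9.38 to 10 ± 2.24 CPM (log2 fold change -2.07, adjusted p = 0.00239, edgeR). Of 18 tested p53 target genes, 4 were called higher and 0 lower (6 and 1 without CYT replicate 2): SESN1, BTG2, CDKN1A and TNFRSF10B, with log2 fold changes of 2.10, 1.93, 1.51 and 1.14. The calls of BTG2 and CDKN1A were lost in 5 of 16 alternatives each, and that of TNFRSF10B without control replicate 3 (1.03, adjusted p = 0.0813, edgeR). The list median was 0.31, and MDA-MB-231 is known for mutant p53.

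Transcription factors that regulate BH3-only genes gave 5 called higher and 2 lower of 13 (6 and 2 without CYT replicate 2). DDIT3, which encodes CHOP, rose from 10.7 ± 1.83 to 48.3 ± 3.03 CPM (SD, n = 3, log2 fold change 2.17, adjusted p = 0.00129, edgeR). With the GC content and length correction the log2 fold change of DDIT3 was 1.56. ATF3 rose by 2.87 (2.19 without CYT replicate 2) and FOXO4 by 2.36 (3.12 without control replicate 1, and not called without control replicate 3, at 2.12, adjusted p = 0.0553, edgeR), while ATF4 fell from 338.8 ± 100.8 to 83.5 ± 17.8 CPM (log2 fold change -2.02, adjusted p = 0.00269, edgeR). Of 7 target genes of ATF4 and CHOP, 0 were called higher and 2 lower (1 and 2 without CYT replicate 2), CHAC1 at -2.36 and TRIB3 at -1.32, with a median of -0.11 that turned to 0.16 without CYT replicate 2. CHAC1 was called in 14 (not without CYT replicate 3, at -2.38, or control replicate 1, at -1.51) and TRIB3 in 12 of 16 alternatives. Of 10 common reference genes, 1 was called, ACTB at -1.86, and the median was -0.27. Of 10 luminal markers 5 were tested and KRT19 was called lower, of 4 basal markers 1 was tested and 0 called, and of 3 endothelial markers 2 were tested and 0 called. Of 5 blood markers, CD14 alone was tested and rose from 0.733 ± 0.585 to 3.90 ± 0.301 CPM (log2 fold change 2.43, or 3.20 without control replicate 3, and not called without control replicate 1, at 2.31, adjusted p = 0.0634, edgeR), while CD3E had 0 counts; the list summed to 0.620, 0.213 and 1.37 CPM in control and 4.09, 5.13 and 4.53 in CYT libraries. Of 5 fibroblast markers, COL1A1 and PDGFRB were tested and both fell, PDGFRB not being called without control replicate 1 (adjusted p = 0.0502, edgeR), and DCN had 0 counts.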
